A study of Homo sapiens with 8 samples.

Results

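The kinesin superfamily was followed across 8 RNA-seq libraries of human lung adenocarcinoma cells. Its members here were 35 genes of the KIF family, taken by symbol and matched to the Ensembl gene IDs of the count files, out of 63677 gene IDs in all. All 35 were matched. They were divided by textbook role, with earlier results of these data known. This gave 12 mitotic kinesins, 14 cargo transport kinesins and 9 kinesins with other roles (microtubule dynamics, cilia and signalling). PC9 is a human lung adenocarcinoma cell line, and PC9-BrM3 is a subline of it that the study uses as its model of brain metastasis. Each of 4 groups had 2 libraries. Untransduced PC9 parental and PC9-BrM3 cells made up the first pair of groups. In the second pair PC9-BrM3 cells carried a lentiviral, doxycycline-inducible hairpin, either Tet-pLKO-shNTC (non-target, here shNTC) or Tet-pLKO-shHSF1 (clone 7480, here shHSF1). Both hairpin lines were selected with puromycin for 5 days and given 500 ng/mL doxycycline for 48 h before harvest, so the control carries the vector, the selection and the drug as well. The untransduced PC9 parental and PC9-BrM3 cells had 48 h of culture with neither. HSF1 was targeted with 1 hairpin, so a change in shHSF1 cannot be told apart from an effect of that hairpin on other transcripts.

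Kinesins are motor proteins that use ATP to move along microtubules or to take their ends apart. Mitotic kinesins build the spindle, move chromosomes and close the dividing cell, and their transcripts rise as cells approach division. Transport kinesins carry vesicles, endosomes, mitochondria and other cargo, mostly towards the cell periphery. HSF1, the master regulator of the heat shock response, binds heat shock elements, which are inverted repeats of GAA. The promoters of many late cell cycle genes hold CCAAT boxes, bound by NF-Y, and a cell cycle homology region, bound by the DREAM and MYB-MuvB complexes.

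The promoters of the members were read first, because the role groups differed in them. RefSeq promoter windows (GRCh38.p14, 300 bases, from 250 before to 50 after an annotated start) were found for 28 of the 35 members: 12 mitotic, 10 transport and 6 other. The stretches below cover 150 bases before and 30 after a start on the gene's strand, with CCAAT boxes and cell cycle homology regions in capitals. The first 4 are mitotic kinesins: the 3 with the deepest falls in the HSF1 knockdown and KIF23, which was not called. The last 2 are the transport kinesins with the deepest fall and the highest rise.

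KIF20B (chr10:89701440-89701619, plus strand): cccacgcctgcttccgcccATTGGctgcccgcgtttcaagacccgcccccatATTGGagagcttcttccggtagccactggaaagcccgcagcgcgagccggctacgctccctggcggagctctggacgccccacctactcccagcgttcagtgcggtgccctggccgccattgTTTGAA
KIF14 (chr1:200620722-200620901, minus strand): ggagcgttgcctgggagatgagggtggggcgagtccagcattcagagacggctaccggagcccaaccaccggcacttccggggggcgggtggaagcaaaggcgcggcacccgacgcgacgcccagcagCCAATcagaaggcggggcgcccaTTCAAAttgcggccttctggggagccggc
KIF20A (chr5:138178962-138179141, plus strand): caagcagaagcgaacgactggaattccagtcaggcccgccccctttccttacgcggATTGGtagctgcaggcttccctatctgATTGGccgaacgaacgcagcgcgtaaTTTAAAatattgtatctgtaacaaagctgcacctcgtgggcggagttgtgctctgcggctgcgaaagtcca
KIF23 (chr15:69414199-69414378, plus strand): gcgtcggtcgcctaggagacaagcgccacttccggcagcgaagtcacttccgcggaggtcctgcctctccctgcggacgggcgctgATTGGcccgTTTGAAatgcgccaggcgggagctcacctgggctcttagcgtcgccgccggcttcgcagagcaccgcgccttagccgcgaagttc
KIF5B (chr10:32056396-32056575, minus strand): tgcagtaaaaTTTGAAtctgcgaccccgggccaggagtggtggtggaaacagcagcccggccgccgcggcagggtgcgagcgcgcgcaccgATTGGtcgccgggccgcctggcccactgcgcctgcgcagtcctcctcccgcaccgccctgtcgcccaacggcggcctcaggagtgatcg
KIF3C (chr2:25982468-25982647, minus strand): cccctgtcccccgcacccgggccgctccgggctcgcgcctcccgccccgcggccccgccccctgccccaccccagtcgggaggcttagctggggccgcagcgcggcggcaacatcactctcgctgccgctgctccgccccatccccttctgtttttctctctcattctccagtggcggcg

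Searched on both strands, a CCAAT box (CCAAT, or ATTGG on the other strand) was in the windows of 10 of 12 mitotic kinesins (83.3%), 4 of 10 transport kinesins (40%) and 1 of 6 others (16.7%), against 39.7% of all 27305 genes with a window. A cell cycle homology region, searched as TTTGAA, as its variant TTCGAA and as its variant TTTAAA, was in the windows of all 12 mitotic kinesins. It was in 2 of 10 transport kinesins (KIF5B and KIF16B), 1 of 6 others (KIF24) and 29% of all genes. Both elements stood together in 10 of 12 mitotic kinesins, in KIF5B, in KIF24 and in 11.7% of all genes. KIF2C and KIF15 were the mitotic members with no CCAAT box in the window. In KIF20A the region starts 26 bases downstream of the nearer CCAAT box, and the median of this spacing over the 10 mitotic members with both was 30 bases (range 9 to 122). In KIF5B the order is the other way round, with the region 81 bases upstream of the box (a spacing of -81). KIF3C, shown last, has none of the letters searched.

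The heat shock element, searched as GAANNTTC, was in no window of the 28 members, against 8.21% of all genes. Its form with 3 repeats, in 0.608% of all genes, contains GAANNTTC, so its absence from the members followed from the first search. The opposite order of the repeats, TTCNNGAA, was not searched, and a window of KIF9 holds it (ttccggaa). An E2F core (TTTCGCGC, TTTGGCGC or TTCCCGCC) was in 1 member, KIF15, where it ends directly before the region, and in 5.11% of all genes. These are matches of letters within 300 bases of an annotated start. No binding was measured.

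**Figure D1:**
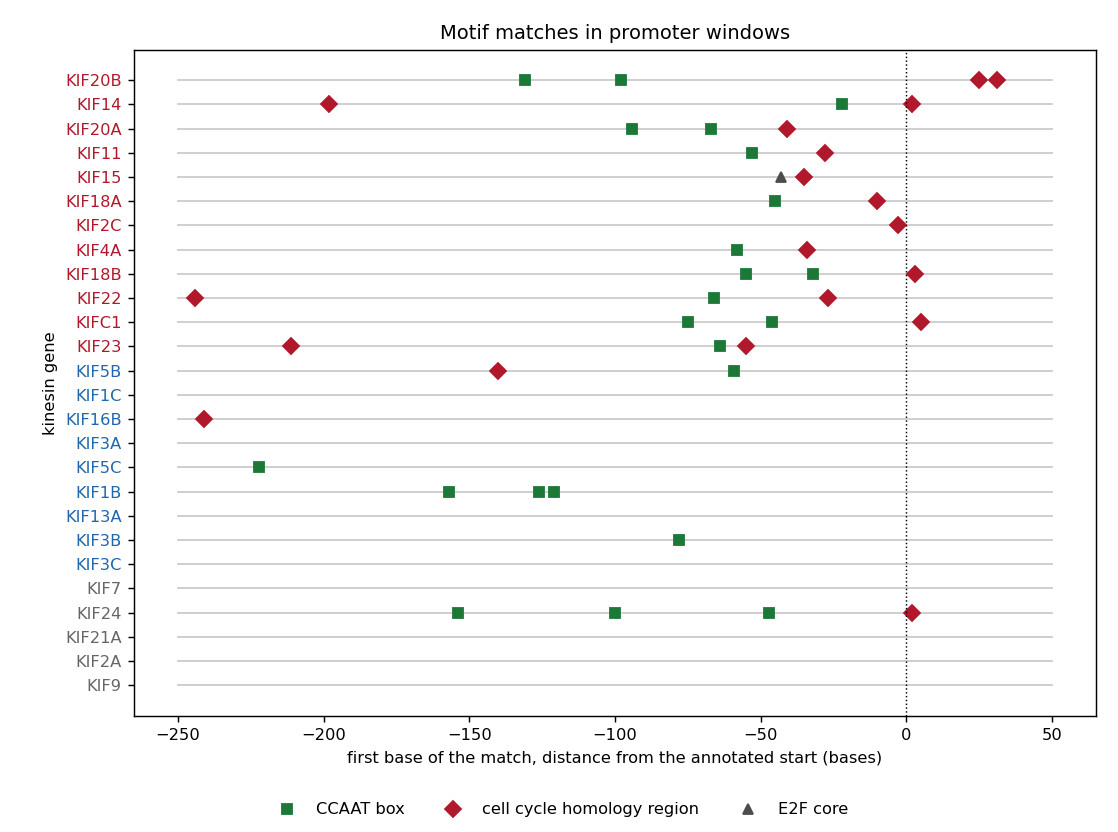
Positions of motif matches in the RefSeq promoter windows of the 26 kinesins that were tested for expression and have a window. The horizontal axis is the distance in bases from the annotated start (dotted line) to the first base of a match, rows are genes (red names mitotic, blue transport, grey other), squares are CCAAT boxes, diamonds cell cycle homology regions and the triangle an E2F core; all 12 mitotic rows hold a diamond and 10 of them a square, while 5 of 9 transport rows and 1 of 5 other rows hold a match.

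Gene-assigned counts ran from 33550140 to 56715336 per library, so 3 counts in 1 library, the limit that a count of 0 allows, stand for 0.0529 to 0.0894 CPM (counts scaled to library size). Whether the 2 replicates of a group came from separate cultures is not stated, and the p-values then measure a spread between libraries that may be technical. HSF1, the check of the labels, stood at 178.4 and 183.8 normalized CPM (on TMM-scaled library sizes) in shNTC and at 15.6 and 13.5 in shHSF1, 12.2-fold lower by edgeR (log2 fold change -3.61 with an SE of 0.08, n = 2 per group, adjusted p = 2.66e-08). In PC9-BrM3 replicate 2, 17.3% of counts were mitochondrial, against 1.40% to 6.23% in the other 7 libraries, and that pair differed far more than the other pairs (chi-square per degree of freedom 334.9, against 11.98 to 27.7). Of 10 epithelial and lung adenocarcinoma markers 8 reached 1 CPM in every group, summing to 4810 to 8799 CPM, while NKX2-1 had under 10 counts in every library and NAPSA stayed under 1 CPM. Of the fibroblast, blood and endothelial, and neural lists 1 marker each (COL6A3, CDH5 and MBP) reached 1 CPM in every library, LYZ and VWF reached it in 1 library each, and DCN, LUM, OLIG2 and P2RY12 were at 0 counts throughout. Per the file headers lane 7 held the untransduced cells and lane 1 the hairpin lines, and every test was made within a lane.

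With HSF1 knocked down, transcripts of the mitotic kinesins fell together, while the transport kinesins split, with the main kinesin-1 heavy chain falling and most of the others rising. Of 12 mitotic kinesins 10 were called lower and 0 higher at an adjusted p under 0.05, with a median log2 fold change of -0.70. Over the 16840 genes tested 45.7% were called, 23.5% lower and 22.2% higher, with a median of 0.01. Of the 12 transport kinesins that passed the count filter 6 were called higher and 3 lower (median 0.33), and of 7 other kinesins 1 was called higher and 2 lower (median -0.06). The medians of the mitotic and transport groups differed by -1.03 on the log2 scale, a description with no test, since genes are not replicates of a condition. Falls of at least 2-fold were called for 3 mitotic kinesins and 1 transport kinesin and a rise of that size for 1 transport kinesin, against 10.4% of all genes called at that size. In 11 of the 12 mitotic kinesins both shHSF1 libraries lay below both shNTC libraries, against 38.5% of all genes in that direction and 73.2% of all genes without overlap in either direction. KIF1A, KIF5A, KIF26A and KIF26B did not pass the filter, with at most 11 counts in any library, and KIF26A had 0 counts in all 8 libraries.

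**Figure D2:**
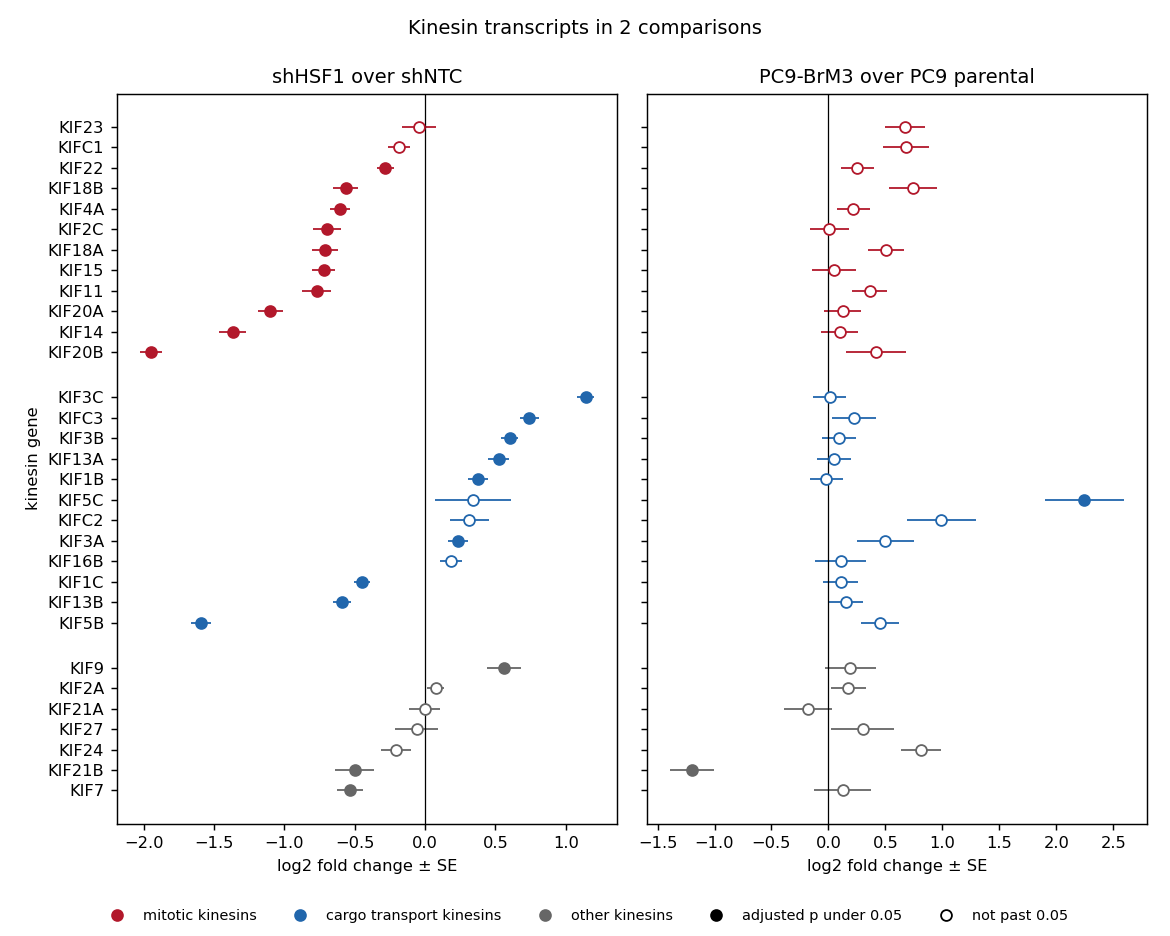
Log2 fold changes of the 31 kinesins tested, with the standard error as a horizontal bar, for shHSF1 over shNTC (left) and PC9-BrM3 over PC9 parental (right); each comparison has 2 libraries per group and its own horizontal scale. Filled points passed an edgeR adjusted p of 0.05; on the left all 12 mitotic points (red) lie below 0 and 10 are filled, and on the right all 12 lie above 0, KIF2C at 0.01 and turning with the scaling, and none is filled.

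The deepest fall among all members was that of KIF20B, a kinesin needed late in cytokinesis (ENSG00000138182, GRCh37 chromosome 10 from 91461367 to 91534700). It stood at 100.8 and 92.5 normalized CPM in shNTC and at 23.8 and 25.5 in shHSF1. Both shHSF1 libraries were far below both controls, a 3.86-fold fall (log2 fold change -1.95 ± 0.08, SE; edgeR adjusted p = 1.43e-07). KIF14, which works with citron kinase at the midbody (ENSG00000118193, chromosome 1 from 200520628 to 200589862), went from 113.3 and 95.3 to 41.8 and 37.8 normalized CPM. The groups did not overlap, and the fall was 2.58-fold (-1.37 ± 0.09, SE; edgeR adjusted p = 3.42e-06). KIF20A, which brings the chromosomal passenger complex to the central spindle (ENSG00000112984, chromosome 5 from 137514408 to 137523404), went from 93.1 and 79.8 to 41.6 and 37.9 normalized CPM. That was 2.14-fold lower, again with no overlap (-1.10 ± 0.09, SE; edgeR adjusted p = 9.79e-06).

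Among the spindle motors, KIF11, the tetrameric motor that pushes spindle poles apart, stood at 169.7 and 134.3 normalized CPM in shNTC and, with HSF1 knocked down, 89.1 and 86.4 (log2 fold change -0.77 ± 0.10, SE; edgeR adjusted p = 0.000353). KIF15, which can stand in for KIF11 on the bipolar spindle, stood at 36.2 and 36.3 and then at 20.8 and 22.5 (-0.72 ± 0.08; edgeR adjusted p = 8.53e-05). Both were lower in each shHSF1 library than in either control. KIF2C, which takes microtubule ends apart at kinetochores to correct attachments, went from 182.5 and 146.2 to 103.6 and 96.2 normalized CPM (-0.70 ± 0.10; edgeR adjusted p = 0.000601). KIF18A, which damps chromosome movements on the metaphase plate, went from 65.1 and 54.6 to 36.8 and 35.1 (-0.71 ± 0.09; edgeR adjusted p = 0.000193). Its relative KIF18B, which shortens astral microtubules, went from 71.2 and 62.7 to 47.4 and 41.8 (-0.56 ± 0.09; edgeR adjusted p = 0.000671). In these 3 the 2 controls were further apart than the 2 knockdown libraries, and no library crossed into the other group.

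The chromokinesins, which bind chromosome arms, moved the same way. KIF4A, which also sets the length of the central spindle with PRC1, went from 94.1 and 85.5 to 59.5 and 56.7 normalized CPM (log2 fold change -0.61 ± 0.07, SE; edgeR adjusted p = 0.000112). KIF22 went from 149.7 and 143.7 to 119.1 and 118.3 (-0.28 ± 0.06; edgeR adjusted p = 0.0033), the shallowest fall called among the mitotic members. In a fit of all 8 libraries KIF22 did not pass (adjusted p = 0.0603). The other two mitotic members did not pass the test. KIF23, the motor of centralspindlin, stood at 151.4 and 117.0 in shNTC and 134.2 and 122.0 in shHSF1, with overlapping groups (-0.05 ± 0.12; edgeR adjusted p = 0.792), and its sign turned with upper-quartile factors (0.0235) and when shNTC replicate 1 was left out (0.16). KIFC1, a minus-end motor that clusters centrosomes, stood at 112.7 and 97.9 against 91.6 and 90.8, with no overlap (-0.19 ± 0.08; edgeR adjusted p = 0.0759). It passed in 3 of 10 alternative settings (the lowest adjusted p was 0.0147).

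Within the 12, the log2 fold change and the GC content of the transcripts had Pearson r = 0.60 and Spearman rho = 0.68. KIF20B, with the lowest GC content (34.2%), fell most, and KIF22, with the highest (58.9%), had a log2 fold change of -0.28. KIF20A (48.4%), with -1.10, and KIF23 (42.3%), with -0.05, lay off this order. Over 15828 genes with a GC value r was 0.10. Genes of 1 library are not independent points, so no p is given, and the part of base composition in the falls was not tested.

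**Figure D3:**
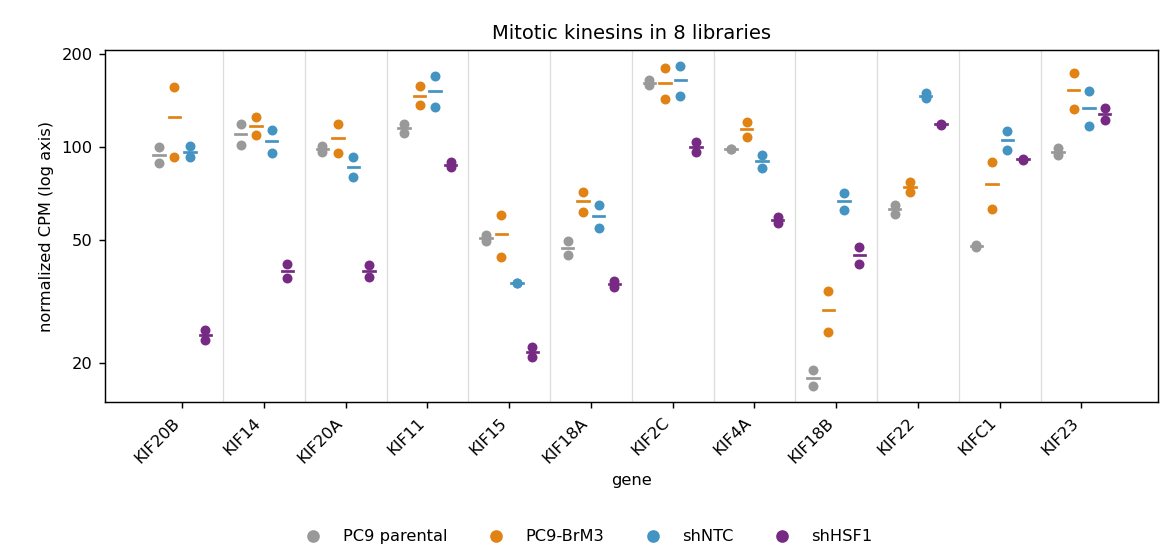
Normalized CPM (log axis) of the 12 mitotic kinesins, 1 point per library and 1 short line per group mean, ordered by their fold change in the knockdown. The 2 shHSF1 points (purple) lie below both shNTC points (blue) for 11 genes, the exception being KIF23; grey and orange points are from another lane.

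Kinesin-1, the main carrier of vesicles, mitochondria and lysosomes, is made of heavy chains (KIF5A, KIF5B, KIF5C) and light chains. KIF5B, the heavy chain found in all tissues (ENSG00000170759, chromosome 10 from 32297938 to 32345359), stood at 271.9 and 245.7 normalized CPM in shNTC and 83.5 and 85.5 in shHSF1. Both knockdown libraries were far under both controls, and the fall was 3.02-fold (log2 fold change -1.59 ± 0.07, SE; edgeR adjusted p = 1.98e-07). Its neuronal relative KIF5C stood near 1 CPM in all 4 libraries (1.16 and 1.06, then 1.16 and 1.63; 0.34 ± 0.27; edgeR adjusted p = 0.335). KIF5A had between 0 and 5 counts per library. Summed per kilobase of exon, the 3 heavy chains went from 46.4 and 41.9 CPM per kb in shNTC to 14.3 and 14.7 in shHSF1, and KIF5B made up 98.8% to 99.7% of that sum in the 8 libraries. Of the other heavy chains, KIF5C was not called and KIF5A did not pass the count filter.

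The light chains, which bind kinesin-1 cargo, did not follow the heavy chain. KLC3 rose from 4.23 and 3.40 to 10.0 and 9.22 normalized CPM (log2 fold change 1.35 ± 0.15, SE; edgeR adjusted p = 6.72e-05). KLC2 rose from 69.3 and 67.1 to 104.4 and 106.8 (0.65 ± 0.06; edgeR adjusted p = 2.57e-05). KLC4 rose by 0.23 ± 0.08 (edgeR adjusted p = 0.0471), and KLC1 had 0.22 ± 0.09 (edgeR adjusted p = 0.0601). KLC1, KLC4 and, below, KIFAP3 are named as subunits of member motors, a choice made after their values were seen. TRAK2, the adaptor between kinesin-1 and mitochondria, rose by 0.82 ± 0.08 (edgeR adjusted p = 2.05e-05). Over the list of 22 light chains and adaptors 11 were called higher and 2 lower (median 0.23), beside 22.2% and 23.5% of all genes.

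Kinesin-2 moved in the opposite direction to KIF5B. It is a motor of KIF3A paired with KIF3B or KIF3C, serving cilia, endosomes and other cargo. KIF3C (ENSG00000084731, chromosome 2 from 26149471 to 26205618) stood at 70.02 and 72.1 normalized CPM in shNTC and at 155.1 and 153.5 in shHSF1. The replicates of each group lay close together, and the rise was 2.21-fold (log2 fold change 1.14 ± 0.06, SE; edgeR adjusted p = 6.03e-07). KIF3B (ENSG00000101350, chromosome 20 from 30865467 to 30922814) rose from 157.8 and 147.1 to 231.0 and 224.2 (0.60 ± 0.06; edgeR adjusted p = 3.72e-05). KIF3A stood at 45.6 and 43.1 and then at 52.1 and 50.6 (0.23 ± 0.07; edgeR adjusted p = 0.0228), and this call was lost in the fit of all 8 libraries, without shNTC replicate 2 and without shHSF1 replicate 1 (highest adjusted p = 0.522). KIFAP3, the subunit that links this motor to cargo, had 0.17 ± 0.09 (edgeR adjusted p = 0.137). Per kilobase, the share of KIF3C in the sum of the 3 motor subunits was 25.2% and 27.1% in shNTC and 34.8% and 35.2% in shHSF1. KIF3A, the common partner, made up 15.3% and 15.1% and then 10.9% and 10.8%.

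Among the kinesin-3 motors, which carry vesicles and endosomes, both directions were seen. KIF13A, which moves recycling endosomes, rose from 63.3 and 71.9 to 92.7 and 98.3 normalized CPM (log2 fold change 0.52 ± 0.07, SE; edgeR adjusted p = 0.000347). KIF13B, its closest relative, fell from 75.1 and 78.7 to 50.3 and 50.3 (-0.59 ± 0.06; edgeR adjusted p = 6.57e-05). The 2 paralogs thus changed in opposite directions, with no overlap between groups for either. KIF1B, a carrier of mitochondria and of synaptic vesicle precursors, rose from 51.8 and 56.99 to 70.3 and 68.7 (0.38 ± 0.07; edgeR adjusted p = 0.0017). KIF1C, which works between Golgi and periphery, fell from 287.4 and 298.6 to 211.3 and 211.2 (-0.45 ± 0.05; edgeR adjusted p = 0.000116). KIF16B, which moves early endosomes, did not pass (0.19 ± 0.08; edgeR adjusted p = 0.0759), with 32.1 and 31.6 against 34.7 and 36.6, and it passed in 1 of 10 alternatives.

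The minus-end motors of this group are KIFC2 and KIFC3. KIFC3, known at adherens junctions and in apical transport, rose from 50.8 and 48.3 to 82.9 and 80.2 normalized CPM (log2 fold change 0.74 ± 0.07, SE; edgeR adjusted p = 1.81e-05). KIFC2 overlapped between groups, at 28.6 and 34.6 against 43.7 and 33.3 (0.31 ± 0.14; edgeR adjusted p = 0.0968), and it passed in 3 of 10 alternatives.

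Of the kinesins with other roles none changed 2-fold in the knockdown. KIF7, a regulator of Hedgehog signalling at the tip of the cilium, fell from 22.5 and 23.4 to 15.1 and 16.1 normalized CPM (log2 fold change -0.54 ± 0.09, SE; edgeR adjusted p = 0.00118). KIF9, known from motile cilia, rose from 8.96 and 7.76 to 12.7 and 11.7 (0.56 ± 0.12; edgeR adjusted p = 0.00439). KIF21B, which slows microtubule growth and is best known in neurons and lymphocytes, fell from 16.8 and 14.5 to 12.2 and 9.62 (-0.50 ± 0.14; edgeR adjusted p = 0.0136). In the fit of all 8 libraries none of these 3 passed (adjusted p = 0.0605, 0.0585 and 0.0753), and KIF21B was also lost without shNTC replicate 1 and without shHSF1 replicate 2. KIF2A, a depolymerising relative of KIF2C, had a log2 fold change of 0.08 (edgeR adjusted p = 0.357), KIF24, which acts at the mother centriole, -0.20 (0.148), KIF27 -0.06 (0.783) and KIF21A -0.003 (0.985), the last pair turning sign with upper-quartile factors. The 2 depolymerases of the KIF2 family were thus called differently, KIF2C lower and KIF2A not called; the difference between them was not tested.

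**Figure D4:**
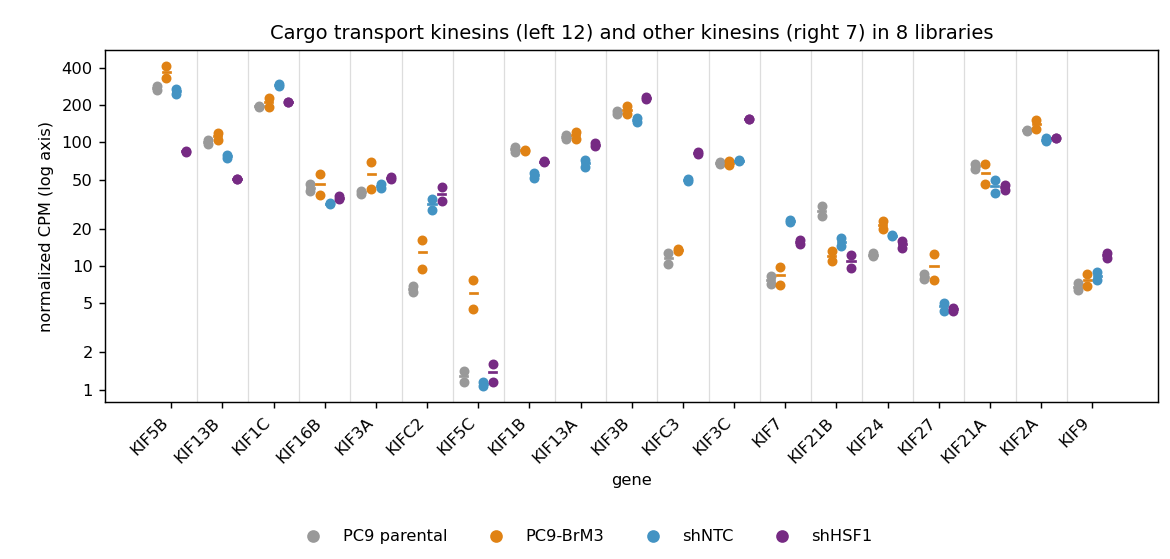
Normalized CPM (log axis) of the 12 transport kinesins (left) and 7 other kinesins (right) that were tested, 1 point per library and 1 short line per group mean, ordered within each role by their fold change in the knockdown. KIF5B at the left has its shHSF1 points (purple) at 83.5 and 85.5, far under those of the other groups, and KIF3C has them at 155.1 and 153.5, above the others.

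Other genes of the same machinery were counted from lists written for this purpose. Of the kinesins outside the member list 3 of 9 passed the filter, and CENPE, the kinetochore kinesin that carries chromosomes to the plate, fell from 134.3 and 115.2 to 78.6 and 72.9 normalized CPM (log2 fold change -0.70 ± 0.08, SE; edgeR adjusted p = 0.000114). KIF4B was also called lower (-0.57 ± 0.16; edgeR adjusted p = 0.0172), but it is a near-identical copy of KIF4A, and the reads of these 2 may be split between them. Of 25 spindle and cytokinesis partners 19 were called lower and 2 higher (median -0.60), beside 23.5% and 22.2% of all genes. NUSAP1, which bundles spindle microtubules, had -1.36 ± 0.08, CKAP2 -1.13 ± 0.09 and ASPM, a protein of the spindle poles, -0.95 ± 0.07, whereas MAPRE1, which tracks growing microtubule ends, rose by 0.65 ± 0.05. The median of these partners was close to that of the mitotic kinesins.

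Of dynein, the motor that moves cargo the other way along microtubules, and its partner dynactin 3 of 20 tested genes were called higher and 4 lower (median 0.04), beside 45.7% of all genes called in either direction. NDE1, a dynein regulator with a role in mitosis, fell by 0.72 on the log2 scale (log2 fold change -0.72 ± 0.08), while its paralog NDEL1 rose by 0.42 ± 0.08. PAFAH1B1, which binds both, rose by 0.30 ± 0.06, and the light chain gene DYNLL2 had -0.27 ± 0.06. Of 14 tubulin genes 4 were called higher and 5 lower (median -0.06). The abundant TUBB (-0.44 ± 0.06) and TUBA1B (-0.50 ± 0.07) fell, and TUBA1A (0.64 ± 0.08) and TUBB6 (0.52 ± 0.07) rose. Tubulin genes are near-identical in parts, so their read counts are uncertain. Of 20 genes of intraflagellar transport, the cilium traffic that kinesin-2 drives, 5 were called higher and 5 lower (median 0.02), among them IFT57 (0.46 ± 0.06), IFT22 (0.55 ± 0.09), TTC21B (-0.72 ± 0.12) and DYNC2H1 (-0.58 ± 0.10). All changes named here passed an edgeR adjusted p of 0.05.

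The comparison of PC9-BrM3 with PC9 parental asks which transcripts differ between the metastatic subline and the cells it came from. Few kinesins were called: KIF5C was higher and KIF21B lower in PC9-BrM3, and 29 of 31 did not pass. Over 17372 genes tested 7.14% were called, 3.87% higher and 3.27% lower, with a median of 0.01, and 5.94% were called at 2-fold or more. KIF5C (ENSG00000168280, chromosome 2 from 149632819 to 149883273) stood at 1.15 and 1.42 normalized CPM (65 and 74 counts) in PC9 parental and at 4.51 and 7.67 (240 and 255 counts) in PC9-BrM3. That was 4.75-fold higher with no overlap (log2 fold change 2.25 ± 0.35, SE, n = 2 per group; edgeR adjusted p = 0.0222), from a level far below that of KIF5B. KIF21B stood at 25.5 and 30.5 and then at 10.9 and 13.3, which was 2.30-fold lower (-1.20 ± 0.19; edgeR adjusted p = 0.0251). The call of KIF5C was lost without PC9 parental replicate 1 (adjusted p = 0.0807) and that of KIF21B without either PC9 parental library (highest adjusted p = 0.215). Both calls held without PC9-BrM3 replicate 2, the library rich in mitochondrial counts.

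None of the 12 mitotic kinesins was called in the subline comparison. An unadjusted edgeR p under 0.05 was seen for 4 of them and for 3 of 12 transport kinesins, all higher in PC9-BrM3. The share of all genes at that unadjusted level was not counted, so these counts cannot be read as a trait of either group. With DESeq2, 2 of the 12 were called higher, beside 1206 of 17372 genes. All 12 had a fold change above 0, with a median of 0.31, although that of KIF2C turned negative with upper-quartile factors (-0.00221), and in 7 of 12 both PC9-BrM3 libraries lay above both PC9 parental ones, against 29% of all genes in that direction and 59% without overlap in either direction. KIF18B stood at 18.9 and 16.8 normalized CPM in PC9 parental and 25.1 and 34.3 in PC9-BrM3 (log2 fold change 0.74 ± 0.21, SE; edgeR adjusted p = 0.0981). KIFC1 stood at 47.5 and 48.0 and then at 62.8 and 89.3 (0.68 ± 0.20; edgeR adjusted p = 0.112). KIF23, the member that did not move in the knockdown test, stood at 98.9 and 94.2 and then at 132.9 and 173.0 (0.67 ± 0.18; edgeR adjusted p = 0.0853). In each of these the second PC9-BrM3 library was the higher one. KIF18A stood at 49.6 and 44.7 and then at 61.8 and 71.6 (0.51 ± 0.16; edgeR adjusted p = 0.123), KIF11 at 118.6 and 111.3 and then at 136.6 and 157.1 (0.36 ± 0.15; edgeR adjusted p = 0.209). KIF4A stood at 98.7 in both PC9 parental libraries and at 107.6 and 120.9 in PC9-BrM3 (0.22 ± 0.14; edgeR adjusted p = 0.390). KIF22 stood at 60.7 and 64.9 and then at 77.2 and 71.5 (0.25 ± 0.14; edgeR adjusted p = 0.327). These were the 7 whose groups did not overlap; they hold motors of the spindle, the chromosome arms and cytokinesis.

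The other 5 overlapped between groups. KIF2C was the flattest, at 158.7 and 164.3 and then at 180.5 and 142.6 (0.01 ± 0.17; edgeR adjusted p = 0.981). KIF14 (0.10 ± 0.16), KIF15 (0.05 ± 0.19) and KIF20A (0.13 ± 0.16), whose falls with HSF1 knocked down were clear, had edgeR adjusted p-values of 0.735, 0.900 and 0.662 here. PC9-BrM3 replicate 2 decided several of these values. KIF20B stood at 99.7 and 88.6 in PC9 parental and at 93.2 and 156.8 in PC9-BrM3, overlapping between groups (0.41 ± 0.26; edgeR adjusted p = 0.372), and its fold change was -0.02 without that replicate. Without PC9-BrM3 replicate 2 the median of the mitotic group was 0.20, and without PC9-BrM3 replicate 1 it was 0.38. The signs of KIF14 (-0.01), KIF15 (-0.21), KIF20A (-0.05) and KIF20B turned without replicate 2. In such a fit the lone PC9-BrM3 library is assumed to vary as much as the PC9 parental pair. With mitochondrial genes left out of the fit, an alternative added after the data were seen, 0 of 12 were called and the median was 0.29.

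Of the 12 transport kinesins tested 1 was called between the lines, KIF5C, and the median was 0.13. As in the mitotic group most fold changes lay above 0, here 11 of 12. In 6 of 12 both PC9-BrM3 libraries lay above both PC9 parental ones, against 29% of all genes in that direction and 59% without overlap in either direction. KIF5B stood at 283.6 and 263.4 normalized CPM in PC9 parental and 331.3 and 411.6 in PC9-BrM3 (log2 fold change 0.45 ± 0.17, SE; edgeR adjusted p = 0.170). KIFC2 stood at 6.85 and 6.16 and then at 9.45 and 16.4 (0.99 ± 0.30; edgeR adjusted p = 0.116). In both genes the PC9-BrM3 libraries lay above the PC9 parental ones, and the spread of the PC9-BrM3 pair was wide. KIF3A stood at 40.4 and 38.2 and then at 41.9 and 68.8 (0.50 ± 0.25; edgeR adjusted p = 0.278). KIF3C, with the highest rise in the knockdown, had 0.01 ± 0.14 (edgeR adjusted p = 0.974; -0.00236 with upper-quartile factors) and KIF3B 0.09 ± 0.15 (edgeR adjusted p = 0.736). KIFC3 stood at 10.4 and 12.8 and then at 13.8 and 13.2 (0.23 ± 0.19; edgeR adjusted p = 0.494). KIF1B, KIF1C, KIF13A, KIF13B, KIF16B and KIFC3 had log2 fold changes between -0.02 and 0.23, with adjusted p-values from 0.494 to 0.951.

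Among the others, KIF24, a centriolar kinesin that holds back the assembly of cilia, stood at 11.99 and 12.7 in PC9 parental and 20.1 and 23.2 in PC9-BrM3 (log2 fold change 0.81 ± 0.18, SE; edgeR adjusted p = 0.0524). The groups lay well apart, yet the value missed the threshold, and it passed in 5 of 10 alternatives. KIF21A stood at 67.3 and 61.1 and then at 46.4 and 66.3, overlapping (-0.18 ± 0.21; edgeR adjusted p = 0.621), and its sign turned without PC9-BrM3 replicate 1 (0.053). KIF2A (0.18 ± 0.16), KIF7 (0.12 ± 0.25), KIF9 (0.19 ± 0.22) and KIF27 (0.30 ± 0.28) did not pass, with edgeR adjusted p-values from 0.515 to 0.782. Thus of this group KIF21B alone passed the test, and it was lower in PC9-BrM3. CENPE stood at 134.1 and 128.1 and then at 134.7 and 261.5 (0.60 ± 0.31; edgeR adjusted p = 0.287). From the lists 3 genes were called, all higher: DYNLRB1 of dynein (1.05 ± 0.19), TACC3 of the spindle (1.00 ± 0.18) and IFT122 of cilium transport (0.88 ± 0.15), with edgeR adjusted p-values of 0.0326, 0.0313 and 0.0282. Of the light chains and adaptors 0 of 22 and of the tubulins 0 of 14 were called by edgeR. An unadjusted edgeR p under 0.05 was seen for 4 and 7, with no count over all genes at that level. DESeq2 called 1 and 2, beside 1206 higher and 997 lower of 17372 genes. Of the kinesins outside the member list 0 of 3 were called or had an unadjusted p under 0.05, by DESeq2 0.

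Levels were compared between genes per kilobase of exon. In PC9 parental KIF5B (46.5 ± 2.43 CPM per kb, SD, n = 2) and KIF2C (44.2 ± 1.08) were the most abundant kinesins, and their libraries overlapped, followed by KIF3B (28.4 ± 1.11) and KIF2A (26.1 ± 0.50). In PC9-BrM3 KIF5B led with 63.2 ± 9.67, ahead of KIF2C (44.2 ± 7.31). In shNTC KIF2C (44.9 ± 7.02) and KIF5B (44.0 ± 3.15) did not differ beyond their spread. In shHSF1 the order was another: KIF3B led with 37.3 ± 0.79, KIF22 (27.5 ± 0.14), KIF2C (27.3 ± 1.44) and KIFC1 (27.3 ± 0.17) came next without differing beyond their spread, and KIF5B was in place 10 with 14.4 ± 0.25. At the other end KIF5C stayed under 1 CPM per kb in every group.

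Summed over the mitotic members, the level was 286.3 and 244.9 CPM per kb with the control hairpin and 176.9 and 168.9 with shHSF1. In the untransduced cells it was 211.6 and 207.4 for PC9 parental and 237.0 and 270.5 for PC9-BrM3. The sum over the transport members was nearly level in the knockdown, at 157.1 and 154.4 in shNTC and 151.9 and 148.7 in shHSF1. It was 149.5 and 146.9 in PC9 parental and 161.8 and 187.0 in PC9-BrM3. The mitotic share of all kinesin transcripts per kilobase was 59.5% and 56.1% in shNTC and 48.5% and 47.7% in shHSF1, and 52.5% in both PC9 parental libraries against 54.0% and 53.4% in PC9-BrM3. In bulk RNA, fewer dividing cells and less of these transcripts per dividing cell cannot be told apart.

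**Figure D5:**
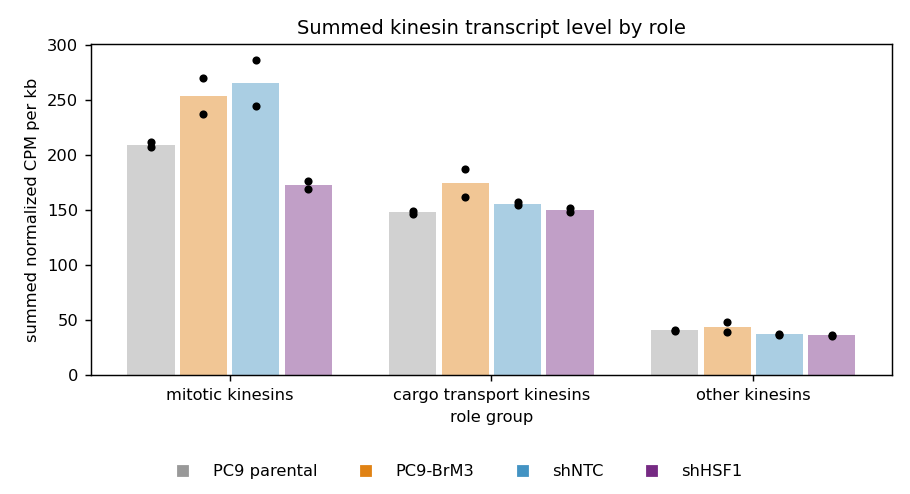
Summed normalized CPM per kb of exon over the mitotic, transport and other kinesins in each group; bars are group means and points the 2 libraries. The mitotic sum is lowest in shHSF1 (176.9 and 168.9), while the transport sum is between 146.9 and 187.0 and the sum of the others between 36.1 and 48.9 in all libraries.

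No test was made between lanes, but shNTC and PC9-BrM3 share a cell line and their levels stand side by side here. The difference tended to rise with GC content. KIFC3 (64.3% GC) was 3.65-fold higher in shNTC, KIF7 (64.1%) 2.70-fold and KIFC2 (68.1%) 2.44-fold, while KIF27 (39.9%) was 2.12-fold and KIF5C (44.5%) 5.12-fold lower. Some members lay off this order: KIF13B (54.6%) was 1.45-fold lower, and KIF20B, with the lowest GC content (34.2%), only 1.29-fold lower. Over 31 members Pearson r between this log2 difference and GC content was 0.71 (Spearman rho 0.64), and over 15828 genes it was 0.51. Vector, puromycin selection, doxycycline and lane cannot be told apart in these differences. Within lanes the relation was weaker, with r = 0.36 for the knockdown and -0.09 for the subline over the 31 members.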

How the data were processed

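Total RNA was sequenced from 8 cell line libraries in 4 groups of 2, grouped by their titles. The deposited files hold whole-number counts of reads by gene, which the authors made with featureCounts 1.6.1 (exons grouped by Ensembl gene ID, reverse-stranded, GRCh37), per the file headers. The submitters' processing notes also list Trim Galore, HISAT2 and DESeq2. Counting by strand keeps antisense genes apart, while reads of near-identical copies (KIF4A and KIF4B, tubulins) stay uncertain.

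Symbols were found for 52181 of 63677 IDs (81.9%). For each comparison only its 4 libraries were fitted, with edgeR 4.0.16 under R 4.3.3. Genes were kept by filterByExpr with a count of 10 and a total of 15 as minima, scaled by TMM and tested by the robust quasi-likelihood F test at a Benjamini-Hochberg adjusted p of 0.05 over all genes tested. The tests were tried on simulated data. Levels are CPM on TMM-scaled sizes of all 8 libraries, per kilobase by the length given in the files. GC content is that of GENCODE 29 transcripts with the same gene ID. Promoters came from RefSeq (GRCh38.p14, 35116 windows); a gene with several windows counts when 1 holds the motif. Of the 31 members tested each may be named; library values are given for called members and those with the smallest p in each role group, and of each list at most 4 genes by p, plus CENPE and HSF1. Alternatives were DESeq2 1.42.0, upper-quartile factors, no filter, a replicate block, a fit of all 8 libraries, leaving out each library and, added later, leaving out mitochondrial genes. Members and lists were chosen with earlier results of these data known. A comparison of protein sequences was not made.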

Additional observations from a re-analysis of the deposited data

How the results depend on the processing

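In each of the 10 alternatives run for the knockdown 9 to 11 of 12 mitotic kinesins were called lower and 0 higher, and the median ran from -0.78 to -0.56 when single libraries were left out. Of the transport kinesins 5 to 7 were called higher and 3 lower in these alternatives. Over the knockdown values of single members 285 were unchanged in call and sign, 7 passed newly, 9 lost the call and 9 turned sign. For the subline the same numbers were 239, 43, 3 and 25, and most of its counts depended on the setting; the cause was not tested.

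With all 8 libraries in 1 fit, whose spread includes the PC9-BrM3 pair, 1639 genes were called higher and 2234 lower in the knockdown. In that fit 0 other kinesins were called in either direction, 1 kinesin outside the member list fell, 5 light chains and adaptors rose and 1 fell, 0 dynein and dynactin genes rose and 1 fell, 1 spindle partner rose, 2 tubulins fell and 1 intraflagellar transport gene rose. In the subline it called 1991 genes higher and 1822 lower, with 4 mitotic, 3 transport and 1 other kinesin higher, and 3 light chains and adaptors, 3 dynein and dynactin genes, 6 spindle partners, 6 tubulins and 5 intraflagellar transport genes in either direction. DESeq2 called 1 outside kinesin and 2 dynein and dynactin genes lower in the knockdown. In the subline it called 1206 genes higher and 997 lower, with 2 mitotic, 2 transport and 1 other kinesin higher, 1 light chain or adaptor, 2 dynein and dynactin genes, 3 spindle partners, 2 tubulins and 2 intraflagellar transport genes. With no count filter, which adds genes and changes the shared spread, the subline gave 1660 genes higher and 1499 lower, 3 mitotic, 2 transport and 1 other kinesin higher, 1 light chain or adaptor, 3 dynein and dynactin genes, 7 spindle partners, 3 tubulins and 4 intraflagellar transport genes, and a transport median of 0.10. KIF2C (-0.0132) and KIF3C (-0.0151) then turned sign in the subline, as they did with upper-quartile factors (-0.00221 and -0.00236) and with mitochondrial genes left out (-0.00865 and -0.00822). Upper-quartile factors called 1 light chain or adaptor lower, 6 dynein and dynactin genes higher and 2 lower, and 3 tubulins lower in the knockdown, where 57.6% of all calls were higher, against 48.6% with TMM. KIF23 (0.0235), KIF21A (0.0628) and KIF27 (0.0089) turned sign under these factors.

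Replicate numbers pair the libraries by number only: deviations of same-numbered libraries had a correlation of -0.0012 in the knockdown and 0.0095 in the subline. With the replicate block the knockdown gave 3893 genes higher and 4122 lower and the subline 717 and 611, 1 tubulin was called in the subline, KIF21A turned to 0.0023 in the knockdown and KIF2C to -0.0012 in the subline.

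Leaving out single libraries, which leaves 1 library in a group and assumes that it varies like the other group, moved these knockdown counts: other kinesins lower 1 to 2, outside kinesins lower 1 to 2, light chains and adaptors higher 7 to 10 and lower 1 to 2, dynein and dynactin lower 2 to 3, spindle partners higher 1 to 3, tubulins lower 3 to 5 and intraflagellar transport higher 2 to 5. The median of the other kinesins ran from -0.17 to -0.072 and the mitotic minus transport difference from -1.14 to -0.85. In the subline genes called higher ran from 182 (without PC9 parental replicate 1) to 4702 (without PC9-BrM3 replicate 1) and lower from 220 to 4526. Calls ran from 0 to 9 for mitotic, 0 to 7 for transport and 0 to 3 for other kinesins higher, and 0 to 2 for other kinesins lower. In either direction they ran from 0 to 1 for outside kinesins, 0 to 12 for light chains and adaptors, 0 to 13 for dynein and dynactin, 0 to 16 for spindle partners, 0 to 8 for tubulins and 0 to 13 for intraflagellar transport. The transport median ran from 0.069 to 0.23 and that of the other kinesins from -0.11 to 0.30. Signs turned within these ranges: in the knockdown KIF23 -0.23 to 0.16, KIF21A -0.17 to 0.17 and KIF27 -0.17 to 0.059. In the subline they were KIF2C -0.17 to 0.16, KIF14 -0.018 to 0.19, KIF15 -0.21 to 0.25, KIF20A -0.048 to 0.27, KIF20B -0.021 to 0.74, KIF1B -0.094 to 0.032, KIF1C -0.029 to 0.22, KIF3B -0.014 to 0.17, KIF3C -0.054 to 0.059, KIF13A -0.053 to 0.13, KIF16B -0.22 to 0.37, KIF7 -0.16 to 0.36, KIF21A -0.47 to 0.053 and KIF27 -0.11 to 0.62. In the edgeR fit of all 4 libraries, none of these members was called in the comparison in which its sign turned. Some subline members passed in fits with a library left out, where 1 group holds a single library.

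Depth limits KIF1A, KIF5A, KIF26A and KIF26B, for which no difference was detectable, and KIF5C, with 65 to 255 counts in the untransduced libraries. With 2 libraries per group each gene has only 2 residual degrees of freedom. The quasi-likelihood test adds a spread estimated over all genes tested, and the small p-values rest largely on that shared spread.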
